A study of Mus musculus with 16 samples.

Results

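The 9 genes described here encode proteins of the red cell membrane and the carbonic anhydrases of the red cell cytosol: Ermap, Slc4a1, Ank1, Rhag, Rhd, Aqp1, Cldn13, Car1 and Car2. They were taken by symbol from the 6288 genes of the table, through the Ensembl identifier of each row, and all 9 were present and passed the filter on low values. RNA of whole cell populations was sequenced from bone marrow cells of C57Bl/6J strain, wild type (WT) or Tet2-deficient (Tet2-/-). The mice were 3 to 4 months old and of both sexes. CD45-positive marrow was enriched on magnetic columns for lineage-negative, Kit-positive, Sca1-positive cells, the fraction that holds stem cells and multipotent progenitors. In both genotypes the marrow was harvested at 3% oxygen, called physioxia here. Part of the enriched cells stayed at 3% oxygen until RNA extraction, and the rest was first kept in ambient air at about 21% oxygen for 6 hours. Each of the 4 groups (WT air, Tet2-deficient air, WT physioxia, Tet2-deficient physioxia) had 4 replicates. Air cells had thus also been harvested in physioxia, the labels do not say whether animals were pooled, and enrichment by columns is not a sort of single cells. The labels call the replicates matched, without saying which libraries came from 1 animal, so p-values measure the spread between these libraries.

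Developing red cells build a membrane whose band 3 anion exchanger (Slc4a1) is tied through ankyrin (Ank1) to the spectrin skeleton and sits in a complex with the Rh proteins (Rhag, Rhd). Carbonic anhydrases convert carbon dioxide and water to bicarbonate and a proton, band 3 exchanges the bicarbonate for chloride, and the Aqp1 channel passes water. In marrow these genes are switched on as progenitors commit to the red cell lineage, largely under the transcription factors Gata1 and Klf1, which bind GATA and CACCC motifs.

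Promoter sequences in RefSeq (GRCm38.p6) were matched for 4 of the 9 genes, Ermap, Rhag, Rhd and Aqp1, and are shown for these alone. No window was matched for the others, and all 9 genes differed in the same direction between genotypes. Each run is the stretch of up to 250 bases that ends at the last base before the gene start (for Aqp1, before the RefSeq start, which lies upstream of the start of the GENCODE gene). Capitals mark matches on either strand to 3 motifs. The GATA motifs were AGATAA (read on the opposite strand as TTATCT) and TGATAA (on the opposite strand TTATCA). The CACCC box was searched as CCACCC (on the opposite strand GGGTGG).
Ermap, chr4:119190012-119190245, minus strand: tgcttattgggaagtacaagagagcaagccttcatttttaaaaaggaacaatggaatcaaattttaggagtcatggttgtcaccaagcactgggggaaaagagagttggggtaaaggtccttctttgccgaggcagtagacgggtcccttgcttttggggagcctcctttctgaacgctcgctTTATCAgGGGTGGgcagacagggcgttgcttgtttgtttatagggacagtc
Rhag, chr17:40810899-40811125, plus strand: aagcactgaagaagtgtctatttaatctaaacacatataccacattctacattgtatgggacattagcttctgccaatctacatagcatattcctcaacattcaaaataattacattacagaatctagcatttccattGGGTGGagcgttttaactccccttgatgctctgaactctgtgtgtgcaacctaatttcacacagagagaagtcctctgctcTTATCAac
Rhd, chr4:134864286-134864535, plus strand: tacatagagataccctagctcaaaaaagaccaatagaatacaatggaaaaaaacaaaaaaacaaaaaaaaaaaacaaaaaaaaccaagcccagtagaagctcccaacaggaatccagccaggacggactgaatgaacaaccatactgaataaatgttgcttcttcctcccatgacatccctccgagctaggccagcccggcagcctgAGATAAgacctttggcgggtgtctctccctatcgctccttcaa
Aqp1, chr6:55336049-55336298, plus strand: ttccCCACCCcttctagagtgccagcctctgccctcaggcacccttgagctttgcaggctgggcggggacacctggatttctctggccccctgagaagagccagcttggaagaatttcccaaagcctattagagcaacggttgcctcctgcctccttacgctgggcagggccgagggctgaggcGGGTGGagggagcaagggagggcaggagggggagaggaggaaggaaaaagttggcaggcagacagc
The Ermap stretch holds TTATCA 51 to 46 bases and GGGTGG 44 to 39 bases before its end. The Rhag stretch holds the same pair in the opposite order, GGGTGG at 89 to 84 and TTATCA at 8 to 3 bases before its end. Rhd has AGATAA at 43 to 38 bases, and Aqp1 has CCACCC and GGGTGG but neither GATA motif in this window. Over 32851 RefSeq promoter windows of 250 bases, 16.6% held AGATAA or TGATAA on either strand and 28.1% held CCACCC. A match of letters describes the sequence and is no measurement of binding.

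Between 7.77 and 15.7 M reads were counted in each library over the genes of the table, and the 9 genes took from 0.248% to 2.51% of them. Its 6288 genes are a chosen part of 55450 annotated genes, how they were chosen is not stated, and 97.4% of the genes tested had an unadjusted limma p under 0.05 in at least 1 of 4 pairwise contrasts. Shares of called genes therefore describe genes already rich in differences, and p-values adjusted over this table are lenient. Tet2 itself, counted over the whole gene with no division by exon, was lower in both Tet2-deficient groups (log2 difference −0.61 ± 0.14, SE, limma adjusted p = 0.00223 in air; −0.59 ± 0.14, adjusted p = 0.00267 in physioxia). For the labelled cell type, 7 of 14 listed stem and progenitor genes were measured, among them Kit, Procr and Slamf1. None was at 0 in all 4 libraries of a group, but neither was any measured marker of other cells. Their presence is thus no check of the label. In WT air these 7 genes summed to 7626 to 9457 normalized counts, against 503129 to 549615 for 14 basophil and mast cell markers. Sums of the other cell lists are given below. Ly6a (Sca1), Cd34, Flt3 and Ptprc (CD45) were not analysed here.

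Each of the 9 genes was more abundant in Tet2-deficient cells, in air and in physioxia alike, and none passed the test between air and physioxia in either genotype. In air 9 of 9 passed at a limma adjusted p under 0.05, where 42.1% of the 6110 tested genes were called higher and 79.5% were called in either direction. The log2 differences ran from 1.78 (Aqp1) to 3.10 (Cldn13) with a median of 2.49, beside a median of 0.24 over all tested genes. In physioxia 9 of 9 passed again, where 35.9% were called higher and 69.4% in either direction, with log2 differences of 1.42 (Aqp1) to 2.77 (Slc4a1) and a median of 2.48 beside 0.06. For each of the 9 genes the lowest Tet2-deficient library lay above the highest WT library of the same oxygen condition, which held in this direction for 35.2% of tested genes in air and 29.7% in physioxia. The 9 genes were proposed with earlier results of these data in view, so their counts describe them and are no independent evidence of a direction. In bulk RNA, more cells of the red cell lineage and more of these RNAs per cell cannot be told apart.

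**Figure D1:**
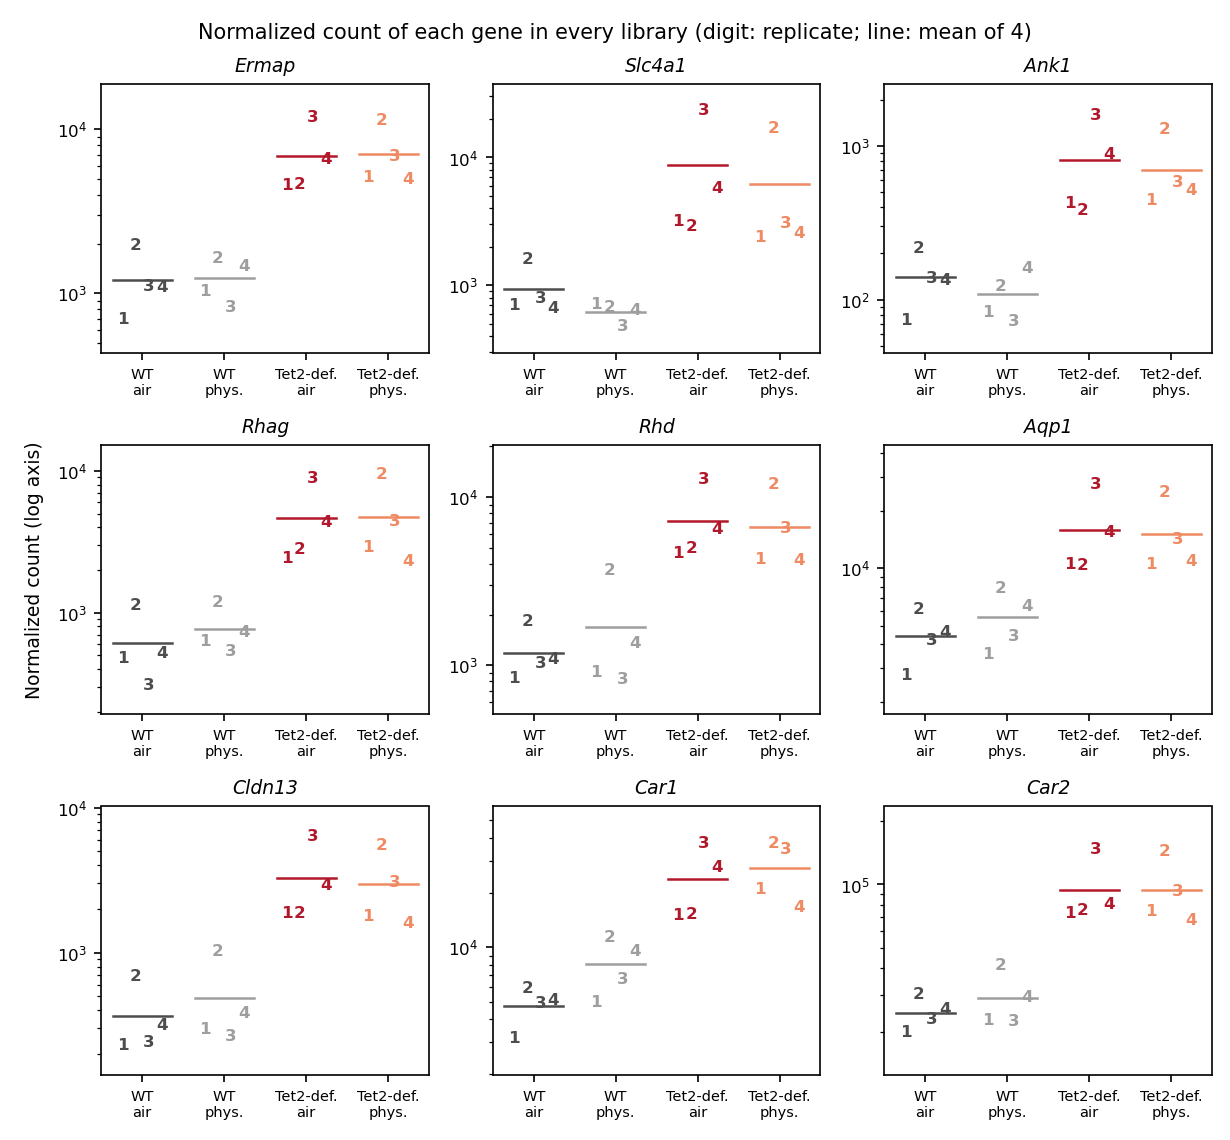
Normalized count (log axis, one panel per gene) in each of the 16 libraries, by group; digits give the replicate number and lines the mean of 4. In every panel the Tet2-deficient libraries lie above the WT libraries of the same oxygen condition, and Tet2-deficient air replicate 3 and Tet2-deficient physioxia replicate 2 are the highest of their groups.

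The cytosolic enzymes come first. Car2 (ENSMUSG00000027562, GRCm38 chromosome 3, 14886273 to 14900770, plus strand), the fast carbonic anhydrase of red cells, was the most abundant of the 9 per kilobase of exon. Its normalized counts, read counts divided by a size factor per library, were 19916, 29929, 22828 and 25370 in WT air replicates 1 to 4, against 72621, 75237, 146674 and 80369 in Tet2-deficient air. In physioxia they were 22588, 41016, 22352 and 29115 in WT and 74180, 144101, 92404 and 67350 in Tet2-deficient cells. Replicate 2 was highest in both WT groups, and 1 library in each Tet2-deficient group stood well above the other 3. The fitted difference was 3.70-fold in air (95% interval 2.50 to 5.46, adjusted p = 4.00e-05) and 3.24-fold in physioxia (2.19 to 4.79, adjusted p = 0.000104).

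Car1 (ENSMUSG00000027556, chromosome 3, 14766216 to 14808368, minus strand) encodes the slower cytosolic isoform, abundant in red cells. It stood at 3156, 5899, 4872 and 5100 in WT air and at 15023, 15171, 37329 and 27587 in Tet2-deficient air. In physioxia it stood at 4932, 11301, 6669 and 9430 in WT and at 20775, 37312, 34749 and 16535 in Tet2-deficient cells. The genotypes did not overlap, while the WT air and WT physioxia ranges did. The fitted difference between genotypes was 4.75-fold in air (2.88 to 7.82, adjusted p = 7.36e-05) and 3.36-fold in physioxia (2.04 to 5.53, adjusted p = 0.000589). The ratio of Car1 to Car2 normalized counts was 0.192 ± 0.0237 (SD, n = 4) in WT air, 0.252 ± 0.0656 in Tet2-deficient air, 0.279 ± 0.0450 in WT physioxia and 0.290 ± 0.0590 in Tet2-deficient physioxia. Its WT air libraries (0.158 to 0.213) lay below the 4 WT physioxia libraries (0.218 to 0.324), a comparison chosen after the values were seen and not tested.

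Car1 and Car2 lie 77.9 kb apart on chromosome 3 with Car3 between them (14863512 to 14872523), a carbonic anhydrase best known from muscle. In air its normalized count was 255.8 ± 42.3 (SD, n = 4) in WT cells against 457.3 ± 61.3 in Tet2-deficient cells. Car3 differed by 0.84 ± 0.16 on the log2 scale in air (SE, adjusted p = 0.000478) and by 0.86 ± 0.16 in physioxia (adjusted p = 0.0004). Of the 14 other carbonic anhydrase genes listed, 3 were measured. Car12, a membrane-bound isoform, was higher (1.46 ± 0.31 in air, adjusted p = 0.00126; 1.74 in physioxia, adjusted p = 0.000328). Car9, a membrane-bound isoform known as a hypoxia target, was lower in Tet2-deficient cells (−0.38 ± 0.14 in air, adjusted p = 0.0252; −0.49 in physioxia, adjusted p = 0.00709). The summed normalized count of these 3 genes was 759 to 906 in WT air, against 995 to 1099 in Tet2-deficient air.

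Among the transporters and channels, Slc4a1 (ENSMUSG00000006574, chromosome 11, 102348824 to 102366203, minus strand), the band 3 anion exchanger, varied most between libraries. Its normalized counts were 692, 1599, 792 and 663 in WT air, against 3186, 2891, 23272 and 5710 in Tet2-deficient air. In physioxia they were 709, 673, 473 and 634 in WT and 2352, 16718, 3069 and 2555 in Tet2-deficient cells. A single library of each Tet2-deficient group was several-fold above the rest, while the 4 WT physioxia libraries lay close together. Tet2-deficient air replicate 3 was 7.30 times the median of the other 3, and Tet2-deficient physioxia replicate 2 was 6.54 times. By the fit Slc4a1 differed 6.77-fold in air (2.70 to 17.0, adjusted p = 0.00175) and 6.80-fold in physioxia (2.71 to 17.1, adjusted p = 0.00171). Without those libraries it remained past the threshold at 4.29-fold in air (without replicate 3, adjusted p = 0.00508) and 4.29-fold in physioxia (without replicate 2, adjusted p = 0.005). Leaving out Tet2-deficient air libraries 3 and 4 gave 3.47-fold in air (adjusted p = 0.0262).

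Aqp1 (ENSMUSG00000004655, chromosome 6, 55336432 to 55348555, plus strand), the water channel, had the smallest genotype difference of the 9 in both conditions. It stood at 2765, 6115, 4188 and 4608 in WT air and at 10421, 10402, 27510 and 15409 in Tet2-deficient air. In physioxia the values were 3552, 7828, 4425 and 6351 in WT and 10500, 24843, 14225 and 10894 in Tet2-deficient cells. The genotypes did not overlap, and in physioxia the lowest Tet2-deficient library was 1.34 times the highest WT library. Aqp1 differed 3.44-fold in air (2.06 to 5.75, adjusted p = 0.000596) and 2.68-fold in physioxia (1.61 to 4.48, adjusted p = 0.0028).

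Rhag (ENSMUSG00000023926, chromosome 17, 40811126 to 40840754, plus strand) encodes the Rh-associated glycoprotein, which carries ammonium and is needed for Rh proteins to reach the membrane. Its normalized counts were 476, 1125, 308 and 516 in WT air, against 2417, 2809, 8897 and 4341 in Tet2-deficient air. In physioxia they were 630, 1171, 528 and 725 in WT and 2869, 9429, 4410 and 2300 in Tet2-deficient cells. The lowest Tet2-deficient library was 2.15 times the highest WT library in air and 1.96 times in physioxia. The fitted difference was 7.44-fold in air (3.70 to 15.0, adjusted p = 0.000151) and 5.58-fold in physioxia (2.77 to 11.2, adjusted p = 0.000526).

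Rhd (ENSMUSG00000028825, chromosome 4, 134864536 to 134896172, plus strand) encodes the Rh protein that pairs with Rhag. It stood at 828, 1825, 1020 and 1077 in WT air and at 4601, 4958, 12667 and 6441 in Tet2-deficient air. In physioxia it stood at 903, 3661, 819 and 1338 in WT and at 4243, 11817, 6488 and 4167 in Tet2-deficient cells. WT physioxia replicate 2 came near the Tet2-deficient libraries, the lowest of which was 1.14 times as high, while the other 3 WT libraries lay far below. Rhd differed 5.78-fold in air (2.97 to 11.3, adjusted p = 0.000303) and 4.40-fold in physioxia (2.26 to 8.56, adjusted p = 0.0011). The ratio of Rhag to Rhd normalized counts ranged from 0.302 to 0.616 in WT air and from 0.525 to 0.702 in Tet2-deficient air, and the ranges overlapped.

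Ank1 (ENSMUSG00000031543, chromosome 8, 22974844 to 23150497, plus strand), the ankyrin that anchors band 3 to spectrin, was the least abundant per kilobase of exon. Its normalized counts were 73, 214, 138 and 134 in WT air, against 421, 379, 1565 and 884 in Tet2-deficient air. In physioxia they were 83, 122, 72 and 160 in WT and 443, 1275, 578 and 511 in Tet2-deficient cells. The Tet2-deficient air group spread 4.13-fold from its lowest to its highest library. Ank1 differed 5.22-fold in air (2.69 to 10.1, adjusted p = 0.000457) and 6.10-fold in physioxia (3.15 to 11.8, adjusted p = 0.000229). Without Tet2-deficient air libraries 3 and 4 the air value was 3.04-fold (adjusted p = 0.0117). Exons of Ank1 overlap those of an antisense gene, Gm15816, whose reads cannot be told apart where strand was not used in counting.

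The remaining 2 are surface proteins with less settled roles. Ermap (ENSMUSG00000028644, chromosome 4, 119175457 to 119190011, minus strand) encodes an erythroid membrane protein of the butyrophilin family that carries the Scianna blood group in humans. Its normalized counts were 693, 1966, 1106 and 1085 in WT air, against 4548, 4608, 11736 and 6549 in Tet2-deficient air. In physioxia they were 1032, 1635, 823 and 1451 in WT and 5114, 11305, 6826 and 4931 in Tet2-deficient cells. The genotypes were well apart in both conditions: the lowest Tet2-deficient library was 2.31 times the highest WT library in air and 3.02 times in physioxia. The fitted difference was 5.60-fold in air (3.32 to 9.44, adjusted p = 4.47e-05) and 5.57-fold in physioxia (3.30 to 9.39, adjusted p = 4.66e-05).

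Cldn13 (ENSMUSG00000008843, chromosome 5, 134914249 to 134915526, minus strand) is a claudin described in mouse stress erythropoiesis. It stood at 228, 680, 239 and 315 in WT air and at 1848, 1869, 6382 and 2906 in Tet2-deficient air. In physioxia the values were 295, 1011, 265 and 377 in WT and 1761, 5493, 3047 and 1594 in Tet2-deficient cells. Replicate 2 was apart from the other 3 in both WT groups, yet lay below all Tet2-deficient libraries. Cldn13 differed 8.58-fold in air (4.08 to 18.1, adjusted p = 0.000145), the largest of the 9 in air, and 6.29-fold in physioxia (2.99 to 13.2, adjusted p = 0.000512). Without Tet2-deficient air libraries 3 and 4 the air values of Cldn13 and Rhag were 5.64-fold and 4.82-fold (adjusted p = 0.0038 and 0.00396).

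**Figure D2:**
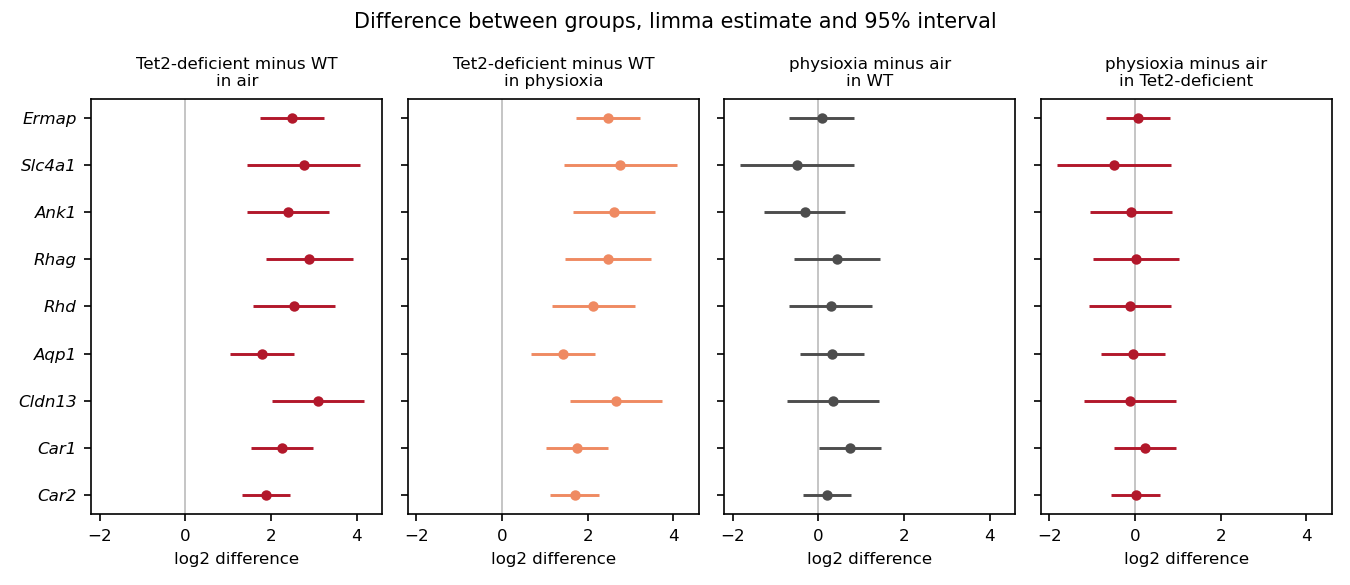
Fitted log2 difference of each gene (points) with its 95% interval (bars) from the limma fit, in 4 contrasts. The genotype contrasts (2 left panels) lie to the right of 0 for all 9 genes, from 1.42 to 3.10, and the oxygen contrasts (2 right panels) lie around 0, with Car1 in WT the one interval that does not include 0.

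Oxygen moved none of the 9 past the threshold. In WT cells 0 of 9 passed by limma, with 1 (Car1) at an unadjusted p under 0.05, where 5.76% of tested genes were called, and 4.91% were called higher in physioxia. The edgeR quasi-likelihood test and DESeq2 on the recovered reads also called 0 of 9. Car1 was 1.66-fold higher in WT physioxia than in WT air (95% interval 1.01 to 2.73, adjusted p = 0.249). Matched by replicate number, Car1 in physioxia was 1.56, 1.92, 1.37 and 1.85 times its air value, higher in 4 of 4 numbers; blocked on replicate number its adjusted p was 0.126. Rhag, Aqp1 and Cldn13 were also higher in 4 of 4 numbers in WT, by 1.04 to 1.71, 1.06 to 1.38 and 1.11 to 1.49 times. Their limma adjusted p was 0.662, 0.665 and 0.764, and 0.550, 0.561 and 0.619 when blocked on replicate number. Rhd and Car2 were higher in 3 of 4 numbers, Ermap and Ank1 in 2 and Slc4a1 in 1. In Tet2-deficient cells none of the 9 was higher in more than 2 of 4 numbers. Over all tested genes, same-numbered Tet2-deficient libraries did not deviate together from their group means, except number 1 (r = 0.32, −0.27, 0.04 and −0.01). Ratios by number in these cells are thus no matched comparison to set beside WT. The share of all tested genes higher in 4 of 4 was not counted, and limma called 300 genes higher and 52 lower in WT physioxia. The counts by number therefore describe these genes and are no evidence of a response to oxygen. Slc4a1 (log2 difference −0.50) and Ank1 (−0.33) had the opposite sign in WT, with intervals of −1.83 to 0.82 and −1.28 to 0.63.

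In Tet2-deficient cells 0 of 9 passed by limma between physioxia and air, and 0 of 9 had an unadjusted p under 0.05. Of all tested genes limma called 0.0% (280 at an unadjusted p under 0.05), edgeR called 0 genes and DESeq2 called 8, none of them among the 9. The log2 differences ran from −0.50 (Slc4a1) to 0.23 (Car1), and the 95% intervals reached from −1.83 to 1.02. Averaged over genotypes, 0 of 9 passed and 0 had an unadjusted p under 0.05, where limma called 3.93% of tested genes and 3.42% as higher; edgeR and DESeq2 also called 0 of 9. The genotype by oxygen interaction passed for 0 of 9 by limma, with 0 at an unadjusted p under 0.05. Limma called 0.0% of tested genes for it (546 at an unadjusted p under 0.05), edgeR 0 genes and DESeq2 11, none of them among the 9. Interaction estimates ran from −0.50 (Car1) to 0.22 (Ank1), with intervals from −1.97 to 1.88. The intervals of Slc4a1, Cldn13, Rhag, Ank1 and Ermap include values beyond 1 log2 unit in either direction.

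The libraries with the highest values were shared among the 9 genes. Tet2-deficient air replicate 3 was the highest of its group for 9 of 9 genes and for 34 of 37 erythroid reference genes, a list of transcription factors, heme enzymes, globins and other red cell genes with no member. Tet2-deficient physioxia replicate 2 was highest for 9 of 9 and 35 of 37, WT air replicate 2 for 9 of 9 and 29 of 37, and WT physioxia replicate 2 for 7 of 9 and 31 of 37. At the other end, WT air replicate 1 was lowest for 7 of 9 genes and Tet2-deficient air replicate 1 for 6 of 9. Summed over the 9 genes, normalized counts were 28826 to 49353 in WT air, 115086 to 276031 in Tet2-deficient air, 34724 to 68417 in WT physioxia and 110837 to 262293 in Tet2-deficient physioxia. The high libraries of the Tet2-deficient groups carried different replicate numbers in air and physioxia. Over all tested genes these libraries deviated from their group means together (r = 0.50), and whether they share animals is not stated. With the highest library of each group left out, a setting chosen after the values were seen, 9 of 9 genes again passed in air and in physioxia and 0 of 9 in WT between physioxia and air.

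**Figure D3:**
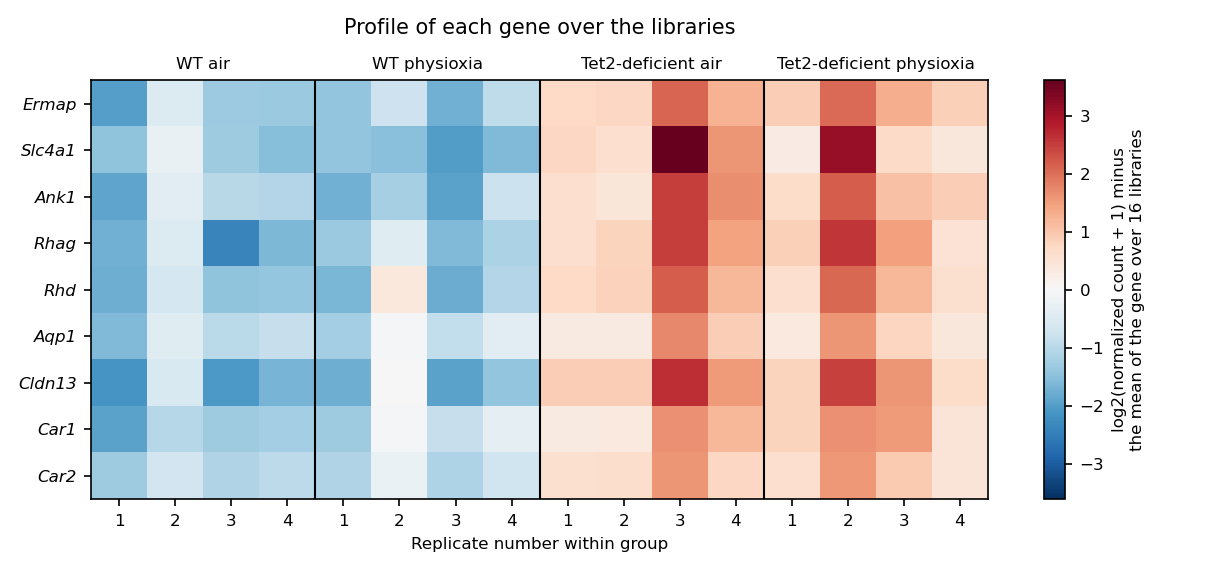
Centred log2 level of each gene (rows) in the 16 libraries (columns, by group and replicate number); red is above and blue below the mean of the gene over all libraries. The columns of Tet2-deficient air replicate 3 and Tet2-deficient physioxia replicate 2 are darkest red, and Slc4a1 spans the widest range.

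Per kilobase of annotated exon, the order of mean levels in WT air was Car2 (10120), Car1 (3811), Aqp1 (1682), Rhd (745), Cldn13 (342.5), Rhag (259.2), Ermap (228.9), Slc4a1 (191.5) and Ank1 (10.3), in normalized counts per kb. Library ranges of neighbours in that order did not overlap between Car2 and Car1, between Car1 and Aqp1, and between Slc4a1 and Ank1, and overlapped between the others. In WT physioxia the order was the same, and Ermap and Slc4a1 did not overlap either. In Tet2-deficient air Slc4a1 (1792 per kb) stood before Ermap (1295), with overlapping ranges, and in Tet2-deficient physioxia Car2 and Car1 overlapped as well. Lengths are the exons of all annotated transcripts together (13527 bases for Ank1), and the length of the transcripts in use was not measured.

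Profiles of the 9 genes over the 16 libraries, each centred on its own mean of log2(normalized count + 1), differed in width. The SD over libraries ran from 0.94 (Aqp1) and 0.97 (Car2) to 1.61 (Cldn13) and 1.66 (Slc4a1). The root mean square difference between profiles was smallest for Aqp1 and Car2 (0.207) and largest for Slc4a1 and Car1 (0.911). Ermap lay nearest to the mean profile of the 9 (0.164), and Slc4a1 farthest (0.576). Among 4734 other genes with a mean of at least 50, whose median difference from that mean profile was 1.36, the nearest included Add2 (0.141), Klf1 (0.164), Slc38a5 (0.210), Ctse (0.221), Hemgn (0.228), Phyhip (0.265) and Slc25a21 (0.265). Add2 encodes beta-adducin of the membrane skeleton and Klf1 an erythroid transcription factor.

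Taken gene by gene over the same libraries, Slc4a1 was nearest to Dmtn (0.295) and Sptb (0.380), which encode the skeleton proteins dematin and beta-spectrin. Car2 was nearest to Epor (0.168), the erythropoietin receptor, and Pheta2 (0.201), and Rhd to Slc38a5 (0.125), an amino acid transporter, and Acmsd (0.182). Ces2g, a carboxylesterase, was the nearest gene to both Aqp1 (0.179) and Car1 (0.205), followed by Asns (0.202) for Aqp1 and Atp1b2 (0.247) for Car1. Ank1 was nearest to Ermap (0.265) and Add2 (0.315), and Cldn13 to Rhag (0.250) and Tspan8 (0.277). Rhag was nearest to Nxpe2 (0.205) and Add2 (0.247), and Ermap to Add2 (0.188) and Klf1 (0.231). All these points share the same libraries, among them the few with high erythroid levels.

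To see whether a gene differed by more than other erythroid genes, its log2 level was taken relative to the mean log2 level of 34 erythroid reference genes without the globins. That reference level was 9.31 ± 0.23 (SD, n = 4) in WT air, 10.99 ± 0.66 in Tet2-deficient air, 9.64 ± 0.37 in WT physioxia and 10.95 ± 0.56 in Tet2-deficient physioxia. Relative to it, 6 of 9 genes were higher in every Tet2-deficient than in every WT air library, where 2.37% of all tested genes and 7 of the 34 reference genes were. Likewise 6 of 9 were in physioxia, where 2.75% of tested genes and 8 of the 34 reference genes were. The members' median was 0.80 in air and 1.17 in physioxia, beside −1.44 and −1.25 over all tested genes. Single reference genes ran from −1.33 to 2.38 in air and from −1.34 to 1.07 in physioxia. As the 9 genes were chosen with earlier results of these data in view, their place above the reference mean is no independent evidence. On this scale the higher reference of the Tet2-deficient libraries lowers the value of every gene there. With 4 against 4 libraries the exact two-sided permutation test cannot go below p = 0.0286, which adjusts to 0.0429 over the 18 comparisons made.

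Cldn13 had the largest relative difference in air (1.42, p = 0.0286 by the exact permutation test), with 0.39, 0.38, 0.79 and 0.35 in Tet2-deficient libraries against −1.28, −0.23, −1.34 and −0.91 in WT. Rhag (1.21), Slc4a1 (1.08), Rhd (0.85), Ermap (0.80) and Car1 (0.57) were also at the smallest possible exact p in air. The Slc4a1 groups nearly met, at 1.18, 1.01, 2.66 and 1.32 in Tet2-deficient libraries against 0.32, 1.00, 0.39 and 0.16 in WT. Without Tet2-deficient air libraries 3 and 4 its relative difference was 0.63. Ank1 differed by 0.70 with overlapping groups (exact permutation p = 0.0571, adjusted 0.0791), and at the smallest p, adjusted 0.0429, when the globins were added to the reference. Car2 (0.20, exact permutation p = 0.286) and Aqp1 (0.10, exact permutation p = 0.743) overlapped between genotypes in air, so their excess over other erythroid genes was within the spread of libraries.

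In physioxia the relative differences at the smallest exact p were those of Slc4a1 (1.45), Cldn13 (1.34), Ank1 (1.30), Rhag (1.17), Ermap (1.17) and Car2 (0.38). Slc4a1 stood at 0.64, 2.31, 0.57 and 0.81 in Tet2-deficient libraries, with replicate 2 far above the rest. Its WT libraries stood at 0.02, −0.79, −0.53 and −0.18. Car2 no longer passed after adjustment (0.42, exact permutation test, adjusted p = 0.0791) with the globins in the reference. Ermap followed the reference closely in Tet2-deficient physioxia, at 1.76, 1.74, 1.72 and 1.76, although its normalized counts ranged 2.29-fold there. Rhd (0.82, exact permutation p = 0.114) and Car1 (0.44, exact permutation p = 0.143) overlapped, Rhd through WT physioxia replicate 2 (1.65 against 0.26 to 0.90 in the other WT libraries). Aqp1 differed by 0.11 (exact permutation p = 0.571), its Tet2-deficient libraries at 2.78 to 2.91 inside the WT range of 2.34 to 3.14.

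**Figure D4:**
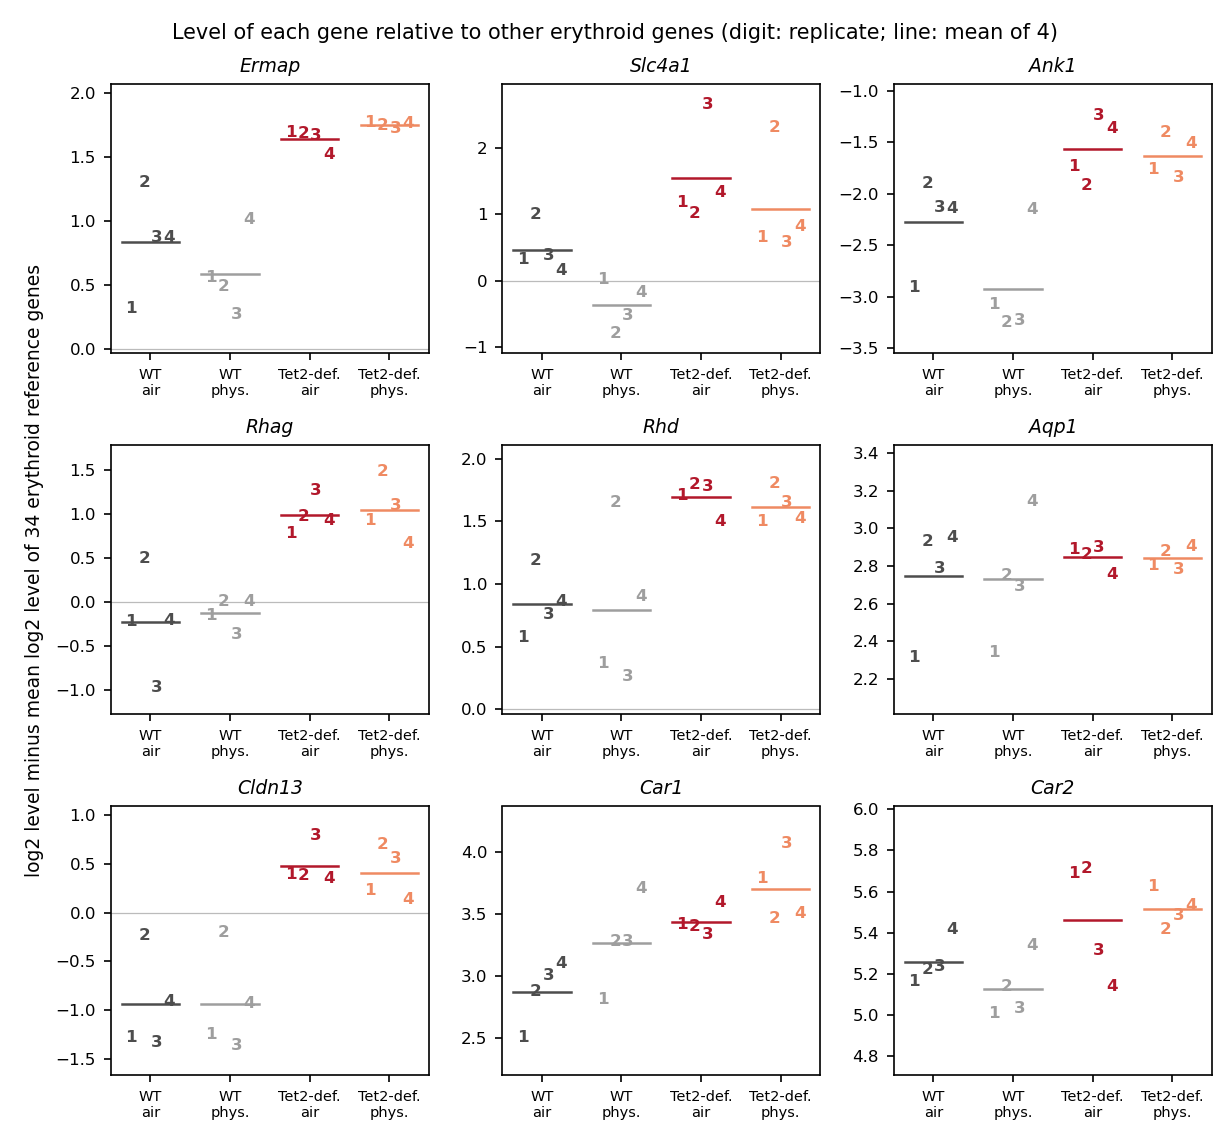
Level of each gene minus the mean level of 34 erythroid reference genes (log2 scale) in each library, by group; digits give the replicate number and lines the mean of 4. For Cldn13, Rhag, Ermap and Slc4a1 the genotypes do not overlap in either oxygen condition, while the Tet2-deficient libraries of Aqp1 lie inside the WT range of their condition.

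Most other genes of the red cell membrane and skeleton were also higher. Of 43 listed, 28 were measured: 22 were higher and 3 lower in Tet2-deficient air (median log2 difference 0.88), and 23 were higher and 2 lower in physioxia (median 1.00). Over all tested genes 42.1% were called higher and 37.4% lower in air (median 0.24), and 35.9% and 33.6% in physioxia (median 0.06), and the counts of all lists below are to be read beside these shares. By p in air the first 4 were Art4, which carries the Dombrock blood group (1.55 ± 0.13, adjusted p = 1.89e-07), Slc43a1, an amino acid transporter (1.31 ± 0.21), Sptb (3.08 ± 0.51) and Add2 (2.51 ± 0.43). Slc2a1, a glucose transporter of many cell types, was lower in both conditions (−0.77 ± 0.20 and −0.59 ± 0.20, limma adjusted p = 0.00469 and 0.0181). Tmod3, a tropomodulin that caps actin filaments, was also lower in both (−0.38 and −0.37), and in air Cd44 was the third lower gene (−0.31). The lists were not tested as sets.

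Family relatives with other sites of expression went in both directions. Of 49 listed paralogs, 11 were measured. Of these, 5 (Ank2, Ank3, Btn1a1, Cldn10 and Cldn5) passed the filter on low values through the Tet2-deficient libraries alone, so that their direction was set by the filter and they are not counted. Of the other 6, 3 were higher and 3 lower in air (median 0.24) and 3 higher and 3 lower in physioxia (median 0.15), beside 42.1% and 37.4% of all tested genes in air and 35.9% and 33.6% in physioxia. Btnl10, a butyrophilin-like relative of Ermap, was among the higher (2.88 ± 0.57 in air). The 3 lower were Slc4a8, a bicarbonate transporter of the Slc4a1 family (−1.06 ± 0.14 in air, adjusted p = 2.19e-05), and the claudins Cldn4 (−1.70 ± 0.39) and Cldn15 (−0.42 ± 0.18).

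Tested genes next to the 9 on the chromosome went in both directions. Within 100 kb, a window chosen after the values were seen, 14 other tested genes were found; 5 were higher and 6 lower in Tet2-deficient air (median log2 difference 0.08), and 4 were higher and 6 lower in physioxia (median −0.31), with 42.1% higher and 37.4% lower over all tested genes in air and 35.9% and 33.6% in physioxia. Many neighbours were not tested: Ank1 had 5 protein-coding neighbours and 0 tested ones, and Slc4a1 had 10 and 2. Rhag, Aqp1, Car1 and Car2 had 1 tested neighbour each outside the 9, Car3 for both Car1 and Car2. Slc2a1, 37.5 kb from Ermap, was lower in both conditions. Cldn4, 29.6 kb from Cldn13, was lower at −1.70 ± 0.39 in air and −1.74 ± 0.39 in physioxia, against 3.10 and 2.65 for Cldn13. Itga2b, a platelet integrin 87.1 kb from Slc4a1, was lower in both (−0.50 and −0.64), and Grn, 64.1 kb away, in air (−0.43). The higher ones in air were P3h1 (1.49) and Svbp (0.55) near Ermap, Mettl27 (0.62) near Cldn13, Mut (0.51) near Rhag, and Car3.

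Of the erythroid reference genes 35 of 37 were higher and 0 lower in Tet2-deficient air (median 1.87, beside 42.1% of all tested genes higher and a median of 0.24), and 27 higher and 0 lower in physioxia (median 1.29, beside 35.9% and 0.06). Gfi1b (1.38 ± 0.18), Klf1 (2.47 ± 0.35), Sphk1 (2.25 ± 0.35) and Tal1 (2.33 ± 0.38) led by p in air. Epor (1.90 ± 0.32), Gata1 (1.17 ± 0.26) and Alas2, the red cell heme synthesis enzyme (2.45 ± 0.61), were higher in both conditions. The globin genes Hba-a1 (2.05 ± 0.63, adjusted p = 0.0101) and Hbb-bt (2.08 ± 0.73, adjusted p = 0.0194) passed in air, and in physioxia they did not (1.36, adjusted p = 0.066; 1.19, adjusted p = 0.157). The summed normalized count of the 37 genes was 46631 to 62594 in WT air, 96040 to 301386 in Tet2-deficient air, 58738 to 97225 in WT physioxia and 92965 to 258992 in Tet2-deficient physioxia. Between WT air and WT physioxia 2 of the 37 passed, Lmo2 and Cited4, both higher in physioxia.

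Markers of other cells also differed between genotypes, in a table where 37.4% of tested genes were called lower in air and 33.6% in physioxia. Genes that passed the filter on low values through 1 genotype alone (2 basophil and mast cell, 1 monocyte, 3 T and NK cell and 1 endothelial marker) are left out of the counts of genes. The summed normalized counts hold every measured gene of a list, the left-out genes included. Most basophil and mast cell markers were lower: of 14 measured of 16 listed, 12 were counted, with 10 lower and 1 higher in Tet2-deficient air and 11 lower and 0 higher in physioxia, and the lists' summed normalized counts are given for WT and then Tet2-deficient cells, in air and then in physioxia (503129 to 549615 and 104530 to 194536; 405487 to 684816 and 131530 to 204616). Of 9 neutrophil markers measured of 14, 8 were lower and 0 higher in air and 7 and 0 in physioxia (3675 to 12459 and 1793 to 2732; 6195 to 15048 and 2196 to 2980). Of 8 monocyte and macrophage markers of 16, 7 were counted, with 7 lower in air and 5 in physioxia and 0 higher in either (17601 to 32074 and 11115 to 11828; 17957 to 39082 and 9975 to 11524). Of 19 T and NK cell markers of 20, 16 were counted, with 12 lower in air and 13 in physioxia and 1, Cd4, higher in both (30872 to 36435 and 18477 to 26592; 28155 to 46425 and 18627 to 26400). Of 3 B cell markers of 15, 2 were lower in air and 3 in physioxia (20826 to 26648 and 8745 to 11951; 21639 to 24701 and 8470 to 11399).

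Stem and progenitor genes went the other way, with 7 of 7 higher in air and in physioxia, beside 42.1% and 35.9% of all tested genes, and sums of 7626 to 9457 in WT air, 13076 to 18954 in Tet2-deficient air, 5548 to 9142 in WT physioxia and 13178 to 18839 in Tet2-deficient physioxia. Of 8 endothelial markers of 14, 7 were counted, with 5 higher and 2 lower in air and 4 higher and 2 lower in physioxia (sums of 4463 to 4904 and 7269 to 8418; in physioxia 2782 to 5006 and 6502 to 8393). Megakaryocyte genes, whose progenitors are shared with red cells, went in both directions, as all tested genes did: of 9 measured of 16, 4 were higher and 3 lower in air and 2 higher and 4 lower in physioxia, and sums overlapped (10058 to 15793 in WT and 11290 to 16801 in Tet2-deficient air; 9989 to 16150 and 10074 to 16269 in physioxia). No marker measured in these lists was at 0 in all 4 libraries of a group. The part of these shifts in cell markers in the differences of the 9 genes was not tested.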

How the data were processed

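Bulk RNA sequencing of 16 libraries in 4 groups of 4 was used. The deposited values are a signal: for each gene, the authors' read count scaled by a size factor of the library. Tools named in the submitters' processing notes are STAR, HTSeq, cutadapt, FastQC and DESeq2, and the build is GRCm38; their versions and roles are not given in the sources used here. Every value (100%) was a whole multiple of 1 read within 0.01, so whole reads were recovered.

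A gene was tested if 4 or more libraries reached a normalized count of 10 (6110 genes, with 178 left out). A limma model (version 3.58.1, under R 4.3.3) with an intensity trend and 1 mean per group was fitted to log2(deposited value + 1), and p-values were adjusted by Benjamini-Hochberg over all tested genes, two-sided, with a threshold of 0.05. On the log2(value + 1) scale changes of low genes are understated. On the recovered reads edgeR 4.0.16 (quasi-likelihood) called 4952 genes between genotypes in air and 4284 in physioxia, and DESeq2 1.42.0 called 4989 and 4352. Relative levels were compared with an exact two-sided permutation test, adjusted over 18 comparisons. The computations were tested on simulated data.

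Gene models and exon lengths are of GENCODE M21; 6278 of 6288 identifiers matched a symbol. The 9 genes and all lists were chosen with earlier results of these data known. Named from each list described were up to 4 genes by p in air and up to 2 against its main direction, with Klf1, Gata1, Epor, Hbb-bt, Hba-a1, Alas2 and Tet2 always. Genes of likest profile were the nearest 8 to the mean profile and the nearest 2 to each gene; 1 that the rule names is not reported here. Ank2, Ank3, Btn1a1, Cldn5, Cd44, Cldn15, Cd4, Lmo2, Cited4 and the genes neighbouring the 9 were named after their values were seen. Alternatives were another pseudocount, filter and scaling, both count tools, each library left out, Tet2-deficient air 3 and 4 left out, annotated genes outside the table counted as unchanged, a reference with globins, a replicate block and, added after the data were seen, leaving out the libraries with the highest erythroid levels. Same-numbered WT air and physioxia libraries deviated together over all genes (r = 0.33, 0.18, 0.16 and 0.33). Of the Tet2-deficient ones number 1 did (r = 0.32), and the others did not (−0.27, 0.04 and −0.01). Tet2-deficient air 3 deviated with Tet2-deficient physioxia 2 (r = 0.50). The main fit used no pairs. The replicate block used the number within genotype for oxygen contrasts and across genotypes for genotype contrasts. Across genotypes same-numbered air libraries did not deviate together (r = −0.03, −0.08, 0.04 and −0.12). Intervals cover the spread between libraries.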

Additional observations from a re-analysis of the deposited data

Results flagged for a closer look

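In 36 combinations of gene and group, the gap of the highest or lowest library to its nearest neighbour was compared with the range of the 4 libraries, by Dixon's test at its 95% critical value. Chance alone flags about 1 in 20 groups if values are normally distributed, which was not tested here. The ratios were taken on normalized counts and not on the log2 scale of the fits, where a high library stands apart less. The 9 genes share their libraries, so the 6 cases found are not independent. For Slc4a1 the highest library stood apart in 3 groups: WT air replicate 2 (1599 normalized counts, ratio 0.862), Tet2-deficient air replicate 3 (23272, ratio 0.862) and Tet2-deficient physioxia replicate 2 (16718, ratio 0.950). Ank1 was flagged in Tet2-deficient physioxia replicate 2 (1275, ratio 0.838). Cldn13 was flagged in WT physioxia replicate 2 (1011, ratio 0.849). Car2 was flagged in Tet2-deficient air replicate 3 (146674, ratio 0.895). These libraries were also the highest of their groups for 29 to 35 of the 37 erythroid reference genes.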

How the results depend on the processing

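Under every alternative run, 9 of 9 genes passed between genotypes in air and in physioxia and 0 of 9 passed in any oxygen contrast or the interaction, including the replicate block (9 and 9, and 0). The block changed no call of these genes, but its numbers are not known to be pairs across genotypes or in Tet2-deficient cells. Relative to erythroid genes, adding the globins to the reference gave 0.69 for Ank1 in air (adjusted p = 0.0429 by the exact permutation test) and 0.42 for Car2 in physioxia (adjusted p = 0.0791 by the exact permutation test), so 7 genes passed in air and 5 in physioxia in place of 6 and 6. Without Tet2-deficient air libraries 3 and 4 the relative difference of Car2 in air was 0.44 in place of 0.20; the cause was not tested. Counts over all tested genes moved more. With annotated genes outside the table counted as unchanged, 2434 of 4858 calls were left between genotypes in air, 2477 of 4243 in physioxia, 0 of 352 between physioxia and air in WT and 6 of 240 averaged over genotypes. Without Tet2-deficient air libraries 3 and 4 the air count was 2740. The WT oxygen count was 548 by DESeq2, 0 without the highest erythroid library of each group, and 126 to 554 with 1 library left out. Averaged over genotypes the oxygen count was 438 without Tet2-deficient air libraries 3 and 4 and 112 without the highest erythroid libraries, and in Tet2-deficient cells it was 152 in place of 0 without those air libraries. Quantile scaling moved the air calls from 2575 higher and 2283 lower to 1984 and 2303, and the median of all genes from 0.24 to 0.12 on the log2 scale. With 4 libraries a group, the intervals of WT oxygen differences ran from −0.36 to 0.77 for Car2 and from −1.83 to 0.82 for Slc4a1, the narrowest and the widest of the 9.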
